A study of Mus musculus with 9 samples.

Results

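Osteoblasts treated with an agonist of the parathyroid hormone receptor were compared with osteoblasts treated with a peptide known as an antagonist of it. The agonist, hPTH(1-34), is a fragment of human parathyroid hormone and was given at 100 nM. The other peptide, bPTH(7-34), is a bovine fragment that was given at 1 µM, and per the series text it is the amide form with D-Trp12 and Tyr34. It starts at residue 7, so it lacks the first residues of the hormone, while both fragments end at residue 34. The comparison took 6 of the 9 arrays of the study, chosen by their titles, with 3 arrays for each peptide. The other 3 arrays, from cells given vehicle, entered the fit to help estimate the spread and are quoted for reference. All groups shared the same cells, which were primary osteoblasts from the calvaria (skull cap) of C57BL/6J mice aged 7 to 10 days. They were used at passage 2, differentiated from day 3 with β-glycerophosphate and ascorbic acid, deprived of serum on day 10 for 24 h, and then treated for 4 h. Cells were prepared separately for each biological replicate, and the text does not say whether 1 preparation was divided among the treatments. The doses of the peptides differ, so each value below contrasts the treatments as given, and peptide and dose cannot be told apart.

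Parathyroid hormone acts on bone-forming cells through its receptor Pth1r, which couples to the stimulatory G protein, raises cyclic AMP (cAMP) and activates protein kinase A. The kinase phosphorylates the transcription factor CREB, which binds cAMP response elements in promoters, and early target genes such as the Nr4a orphan nuclear receptors follow within hours. The first residues of the hormone are those needed to activate the receptor, and fragments without them can bind it while raising cAMP little or not at all. In osteoblasts the hormone is known to control genes for mineral handling, osteoclast formation, growth factors and the Wnt pathway.

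Levels are given as log2 values from robust multi-array averaging (RMA), on which a difference of 1 is a 2-fold change. The array medians ran from 1.67 to 1.76. Over all 41345 transcript clusters of the array, with or without a gene symbol, arrays of hPTH(1-34) correlated with each other at 0.978 to 0.982. Arrays of bPTH(7-34) did so at 0.98 to 0.981, and arrays of different peptides at 0.976 to 0.982. Olfactory receptor genes, which osteoblasts are not expected to use, served as a gauge of background: the 95th percentile of their mean levels was 1.62 over 1105 such genes. The label of the cells was checked against osteoblast markers. Col1a1, the main collagen chain of bone, averaged 12.29 with hPTH(1-34) and 12.27 with bPTH(7-34). Of the 8 osteoblast markers measured, Bglap, the gene of osteocalcin, lay under the background gauge in all 3 groups, and the osteoblast transcription factor Sp7 was dim at 1.53 and 2.03. In bulk RNA, fewer cells of a type and less RNA per cell cannot be told apart.

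In this contrast 112 of 22180 genes (0.505%) passed an adjusted p of 0.05 by limma with Benjamini-Hochberg adjustment. Of these, 80 were higher with hPTH(1-34) than with bPTH(7-34), which is 0.361% of the genes tested, and 32 were lower, which is 0.144%. Such genes are referred to as called. The sizes ran from 0.53 to 3.38 on the log2 scale, and 63 called genes differed at least 2-fold (52 higher, 11 lower). The median log2 difference was 1.19 among the genes called higher and -0.87 among those called lower. For all 112 called genes the 3 arrays of one peptide lay beyond the 3 of the other. The arrays of the peptides did not overlap for 11.3% of all genes tested (1359 above and 1142 below), so separation alone was common. The median half-width of the 95% interval of a difference was 0.30. No called gene had both peptide means under the background gauge. The bPTH(7-34) mean alone was under it for 2 called genes, and the hPTH(1-34) mean alone for 1.

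**Figure D1:**
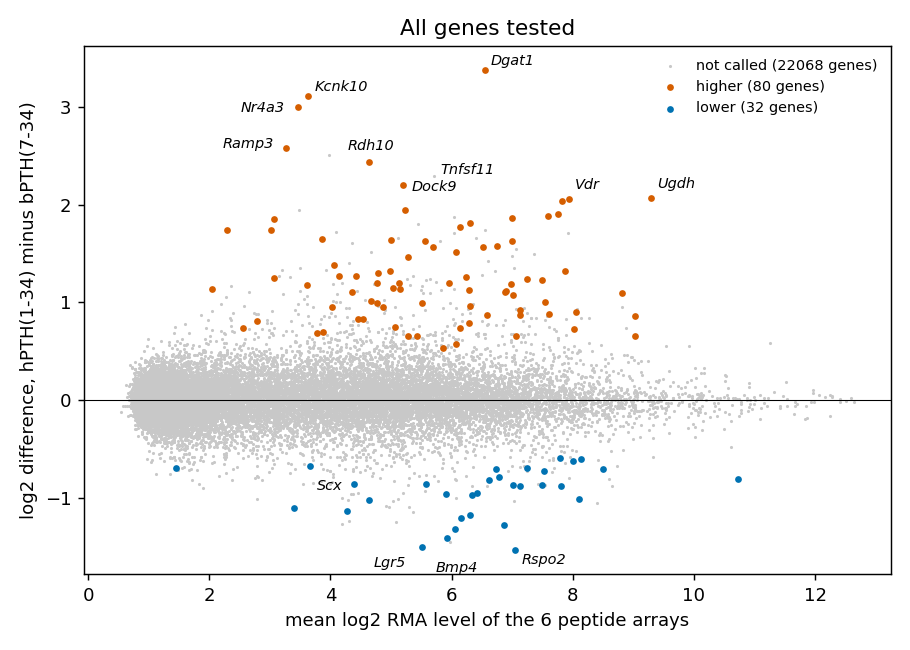
Log2 difference between hPTH(1-34) and bPTH(7-34) against the mean log2 RMA level of the 6 peptide arrays, 1 point per gene. The 80 genes called higher reach 3.38 (Dgat1), the 32 called lower reach -1.54 (Rspo2), and Tnfsf11 is labelled although it was not called.

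The cAMP and CREB target genes came first by count: 6 of 24 measured were called higher and 0 lower. The median log2 difference over the 24 was 0.29, and 20 of them were positive. The called members were the orphan nuclear receptors Nr4a1, Nr4a2 and Nr4a3, the cAMP-responsive transcription factor gene Crem, the G protein regulator Rgs2 and the leucine zipper repressor Nfil3. Promoter sequence was at hand for all of these but Crem, and the stretches are printed because CREB binds there in known target genes. They give the 250 bases before the annotated start in RefSeq, build GRCm38.p6, 5′ to 3′ on the strand of the gene. Capitals mark the CREB half-site TGACG on either strand, so CGTCA is the same site read from the other strand. The choice of these promoters was made after the values of the genes were seen.
Nr4a3 (chr4:48045055-48045304, plus strand): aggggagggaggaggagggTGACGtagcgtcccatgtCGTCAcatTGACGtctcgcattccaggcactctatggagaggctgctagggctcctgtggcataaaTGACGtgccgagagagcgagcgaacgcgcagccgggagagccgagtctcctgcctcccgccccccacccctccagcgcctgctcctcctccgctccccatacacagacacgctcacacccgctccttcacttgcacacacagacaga
Nr4a2 (chr2:57124004-57124253, minus strand): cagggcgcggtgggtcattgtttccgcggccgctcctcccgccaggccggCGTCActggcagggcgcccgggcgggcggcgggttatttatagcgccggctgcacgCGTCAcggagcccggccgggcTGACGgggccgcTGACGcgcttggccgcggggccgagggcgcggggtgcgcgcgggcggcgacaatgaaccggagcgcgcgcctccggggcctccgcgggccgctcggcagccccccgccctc
Nr4a1 (chr15:101266596-101266845, plus strand): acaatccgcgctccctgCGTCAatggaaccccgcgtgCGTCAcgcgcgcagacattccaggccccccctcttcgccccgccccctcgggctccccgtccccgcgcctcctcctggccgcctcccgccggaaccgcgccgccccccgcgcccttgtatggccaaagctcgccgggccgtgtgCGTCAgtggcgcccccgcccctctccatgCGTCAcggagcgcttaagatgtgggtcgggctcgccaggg
Rgs2 (chr1:144004150-144004399, minus strand): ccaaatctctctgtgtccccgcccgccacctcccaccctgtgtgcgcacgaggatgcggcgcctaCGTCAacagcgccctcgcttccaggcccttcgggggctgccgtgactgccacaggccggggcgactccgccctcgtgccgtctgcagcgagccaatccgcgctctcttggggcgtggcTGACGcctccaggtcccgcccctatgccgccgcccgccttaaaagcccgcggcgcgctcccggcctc
Nfil3 (chr13:52981040-52981289, minus strand): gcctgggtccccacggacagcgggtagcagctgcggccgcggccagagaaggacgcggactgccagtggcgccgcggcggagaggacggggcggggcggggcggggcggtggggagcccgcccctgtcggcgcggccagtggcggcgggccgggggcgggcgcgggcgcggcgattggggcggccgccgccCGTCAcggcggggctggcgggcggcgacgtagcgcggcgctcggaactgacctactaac

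Each of the 3 Nr4a stretches held 4 half-sites, the Rgs2 stretch 2 and the Nfil3 stretch 1. In Nr4a1 they lay 233, 213, 69 and 40 bases before the start, and in Nr4a3 they lay 231, 213, 205 and 147 bases before it. Counts over all genes used windows of 300 bases, from 250 before to 50 after the start, both strands, and 85 of the 112 called genes had at least 1 window. Of 78 windows of genes called higher, 3 held 4 or more half-sites (3.85%), against 0.33% of the 20611 windows of all genes tested, and these 3 are the Nr4a windows. With a mean log2 level of at least 3 over all 9 arrays, these shares were 4.23% and 0.575%. Nr4a3 reached that level through hPTH(1-34), where its mean was 4.96, against 2.17 with vehicle and 1.96 with bPTH(7-34). The filter is thus not independent of the call. The minimum of 4 was set after the Nr4a stretches were seen to hold 4 each, so these shares describe them and test nothing. At least 1 half-site was present in 30 of the 78 windows (38.5%), in 5 of 27 windows of genes called lower (18.5%), and in 24.2% of windows of genes tested. Half-sites were more frequent among well-expressed genes: with a mean log2 level of at least 3, the shares were 38% of windows of genes called higher and 32% of all. Some genes have several windows. Counted per gene with any such window, the shares were 49.1% and 36.8% at that level, and 49.2% and 26.8% at any level. They describe the genes and were not tested. The full palindrome TGACGTCA, which contains the half-site on both strands, was in 1 of the 78 windows (1.28%), in 0 of 27 windows of genes called lower, and in 2.32% of windows of genes tested. That gene, Clasp2, a microtubule-binding protein, held it 31 bases before its start. It is shown for that reason, with capitals for the palindrome.
Clasp2 (chr9:113741406-113741472, plus strand): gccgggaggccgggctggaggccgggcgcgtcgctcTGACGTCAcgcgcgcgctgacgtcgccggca
A match of letters is a description and not a measured binding site.

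The Nr4a genes encode nuclear receptors that need no known hormone and are induced within hours by cAMP. Nr4a3 measured 4.49, 4.83 and 5.56 on the hPTH(1-34) arrays and 1.94, 2.01 and 1.93 on the bPTH(7-34) arrays. Its log2 difference was 3.00 ± 0.23 (SE, n = 3 per group), an 8.0-fold size, with a limma adjusted p of 0.00317. The bPTH(7-34) arrays lay little above the background gauge of 1.62, so the size rests on a low level there. Nr4a2 measured 5.85, 6.45 and 6.31 with hPTH(1-34) and 4.13, 4.58 and 4.06 with bPTH(7-34), a log2 difference of 1.95 ± 0.21 (limma adjusted p = 0.0104). Nr4a1 measured 4.90, 4.71 and 5.11 against 3.83, 3.91 and 3.66, a log2 difference of 1.11 ± 0.17 (limma adjusted p = 0.0318). No array of one peptide reached the range of the other for any of these receptors.

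Rgs2 shortens signalling by G proteins, and its arrays read 5.29, 5.36 and 5.68 with hPTH(1-34) and 4.35, 3.76 and 4.31 with bPTH(7-34). The log2 difference was 1.30 ± 0.21 (limma adjusted p = 0.0370), while a dimmer Rgs2 cluster gave 0.26 ± 0.12 (adjusted p = 0.542). Crem was dimmer, at 2.74, 3.04 and 2.98 against 2.07, 2.30 and 2.17, and Nfil3 measured 5.75, 6.20 and 6.06 against 4.87, 5.33 and 4.84. The vehicle mean of Nfil3 was 5.43, between the peptide means of 6.00 and 5.01. Other members of the list gave no call, among them Fos at 0.09 ± 0.10, Sik1, the salt-inducible kinase, at 0.01 ± 0.25 and Per1 at 0.00 ± 0.09.

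Of the genes that carry or limit the signal itself, few were called. Among 18 genes for the receptor, its G proteins, arrestins and partners, 1 was called higher and 0 lower, with a median log2 difference of -0.02. That gene was Ramp3, a membrane partner of calcitonin-family receptors, at 3.51, 5.18 and 5.00 on the hPTH(1-34) arrays and 1.86, 2.13 and 1.95 on the bPTH(7-34) arrays. Its log2 difference was 2.58 ± 0.36 (limma adjusted p = 0.0228), with the first hPTH(1-34) array far below the other two and bPTH(7-34) near background. The receptor gene Pth1r measured 4.77, 4.29 and 4.01 with hPTH(1-34) and 4.93, 4.80 and 5.08 with bPTH(7-34). These ranges did not overlap, but the log2 difference of -0.58 ± 0.19 gave a limma adjusted p of 0.338. Of 32 genes for cAMP synthesis, its breakdown and protein kinase A, 1 was called higher and 0 lower, with a median of 0.07. It was Pde10a, a phosphodiesterase that degrades cyclic nucleotides, at 4.93, 5.12 and 5.10 against 3.54, 4.03 and 3.78 (log2 difference 1.27 ± 0.15, limma adjusted p = 0.0137). Pde3b, another phosphodiesterase, gave 1.10 ± 0.24 with an adjusted p of 0.110. Akap2, an anchoring protein of protein kinase A that is not in the list, was called higher by 0.74 ± 0.13 (limma adjusted p = 0.0478). Rgs2 was the 1 called gene among 14 RGS genes, whose median was 0.04.

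**Figure D2:**
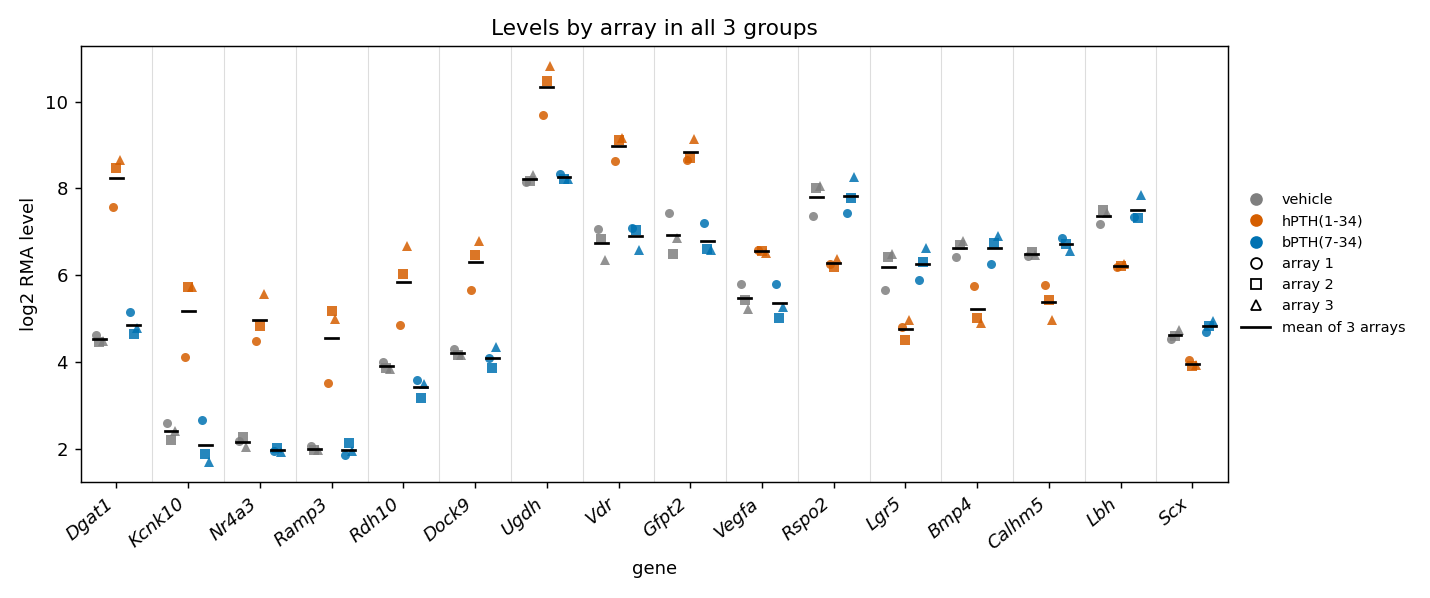
Log2 RMA level of 16 named genes on all 9 arrays, by group (colour) and array number (symbol), with the mean of 3 arrays as a bar. The vehicle and bPTH(7-34) points lie close together for most of these genes. The first hPTH(1-34) array is nearest to the bPTH(7-34) points for all genes shown but Vegfa, Rspo2, Lgr5 and Lbh. Kcnk10, Ramp3 and Rdh10 are examples.

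The greatest difference of all was in Dgat1, the enzyme that completes triglyceride synthesis. It measured 7.57, 8.48 and 8.66 with hPTH(1-34) and 5.15, 4.65 and 4.78 with bPTH(7-34). The lowest hPTH(1-34) array thus stood more than 2 log2 units above the highest bPTH(7-34) array. Its log2 difference was 3.38 ± 0.26 (95% interval 2.80 to 3.96), a 10.4-fold size, with a limma adjusted p of 0.00317. Of 16 genes of triglyceride and fatty acid turnover, 2 were called higher and 1 lower, with a median of 0.08. The second higher gene was Acsl4, which activates long-chain fatty acids such as arachidonate, at 1.63 ± 0.20 (adjusted p = 0.0148). Pdk4, the kinase that inhibits pyruvate dehydrogenase, was lower by -0.96 ± 0.14 (adjusted p = 0.0230). Of 10 adipocyte markers measured, 0 were called and 7 were positive, with a median of 0.21. The mean level of these markers ran from 4.37 to 5.06 over the hPTH(1-34) arrays and from 4.23 to 4.70 over the bPTH(7-34) arrays. Plin1, the lipid droplet protein perilipin, averaged 4.44 and 3.90 (0.54 ± 0.21, adjusted p = 0.437), and Fabp4, the fatty acid carrier of fat cells, 8.23 and 7.74 (0.49 ± 0.26, adjusted p = 0.617), both in the direction of Dgat1 with overlapping arrays. Adipoq, the gene of the fat-cell hormone adiponectin, averaged 4.53 and 4.55, and Lep was under the background gauge. Their part in the Dgat1 difference was not tested. Of 8 diacylglycerol kinases 0 were called, with a median of 0.11. Dgkh led them at 1.61 ± 0.32 (adjusted p = 0.0763).

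The enzymes that supply sugar nucleotides for hyaluronan and other matrix glycans made a second group, with 3 of 14 called higher and 0 lower and a median of 0.32. Gfpt2 catalyses the first committed step of the hexosamine pathway. It measured 8.66, 8.71 and 9.15 with hPTH(1-34) and 7.21, 6.61 and 6.58 with bPTH(7-34), a log2 difference of 2.04 ± 0.26 (limma adjusted p = 0.0157). Uap1, which makes UDP-N-acetylglucosamine at the end of that pathway, measured 8.19, 8.52 and 8.88 against 6.88, 6.39 and 6.67 (1.88 ± 0.23, limma adjusted p = 0.0148). Ugdh, which turns UDP-glucose into UDP-glucuronate, measured 9.69, 10.48 and 10.83 against 8.34, 8.23 and 8.21 (2.07 ± 0.24, limma adjusted p = 0.0127). The lowest hPTH(1-34) array exceeded the highest bPTH(7-34) array by more than 1 log2 unit for all 3 enzymes. Gfpt1, the sister enzyme of Gfpt2, gave 0.33 ± 0.17 (adjusted p = 0.595). The hyaluronan synthases themselves were not called, with Has2 at 0.67 ± 0.17 (adjusted p = 0.185), Has1 at 1.33 ± 0.46 (adjusted p = 0.369) and Has3 at 0.46 ± 0.17 (adjusted p = 0.422). Among 24 enzymes that build and sulfate glycosaminoglycan chains 0 were called, with a median of 0.02. Chst11, a chondroitin sulfotransferase, had the smallest p of them, at 1.63 ± 0.31 (adjusted p = 0.0646).

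Receptors and enzymes for fat-soluble hormones followed. Vdr, the vitamin D receptor, measured 8.63, 9.12 and 9.17 with hPTH(1-34) and 7.10, 7.05 and 6.58 with bPTH(7-34). Its log2 difference was 2.06 ± 0.22 (limma adjusted p = 0.0104), and it was the 1 gene called among 16 for vitamin D and mineral handling, whose median was 0.09. Alpl, the alkaline phosphatase of mineralising cells, missed the threshold, at 6.32, 6.73 and 6.38 against 5.32, 5.62 and 5.51 (0.99 ± 0.17, limma adjusted p = 0.0513). A dimmer Alpl cluster gave 0.69 ± 0.20 (adjusted p = 0.251). Rdh10, which oxidises retinol to retinaldehyde on the way to retinoic acid, measured 4.85, 6.04 and 6.67 against 3.58, 3.18 and 3.49. These arrays did not overlap, and the log2 difference was 2.44 ± 0.37 (limma adjusted p = 0.0318). Rdh10 was the 1 called gene of 20 in the retinoid list, in which 9 were positive. The retinoic acid carrier Crabp2 gave 0.83 ± 0.15 (adjusted p = 0.0563), and Aldh1a3, a retinaldehyde dehydrogenase, gave 1.40 ± 0.51 with overlapping arrays (adjusted p = 0.406).

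Secreted growth factors differed in both directions. Vegfa, which drives blood vessel growth, measured 6.58, 6.56 and 6.52 with hPTH(1-34) and 5.79, 5.02 and 5.26 with bPTH(7-34). The hPTH(1-34) arrays lay within 0.1 of each other, while those of bPTH(7-34) were spread more widely. The log2 difference was 1.20 ± 0.20 (limma adjusted p = 0.0424), and Vegfa was the 1 called gene of 24 in the list of VEGF, FGF and other angiogenic factors, whose median was -0.08. In the TGF-beta, activin and BMP axis 1 of 35 genes was called higher and 1 lower, with a median of 0.03. Inhba, the subunit of activin A, was higher by 1.32 ± 0.20 (adjusted p = 0.0327), and its binding antagonist Fst gave -0.62 ± 0.11 (adjusted p = 0.0534). Bmp4, a bone morphogenetic protein, measured 5.76, 5.02 and 4.89 with hPTH(1-34) and 6.27, 6.74 and 6.90 with bPTH(7-34), a log2 difference of -1.41 ± 0.24 (limma adjusted p = 0.0464). No EGF family gene was called among 15, where the median was -0.04.

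Part of the R-spondin system, which amplifies Wnt signalling through LGR receptors, was lower with hPTH(1-34). Of its 9 genes, 2 were called lower and 0 higher, and the median was -0.15, which moved between -1.29 and -0.02 over the alternatives run. Rspo2, a secreted R-spondin, measured 6.27, 6.20 and 6.37 with hPTH(1-34) and 7.43, 7.77 and 8.27 with bPTH(7-34). The log2 difference was -1.54 ± 0.23 (limma adjusted p = 0.0312), the lowest of all genes called. Lgr5, a receptor for R-spondins, measured 4.80, 4.51 and 4.97 against 5.88, 6.30 and 6.63, a log2 difference of -1.51 ± 0.25 (limma adjusted p = 0.0416). A dimmer Lgr5 cluster gave -0.47 ± 0.14 (adjusted p = 0.259). Rspo3 was not called, at 8.30, 7.95 and 7.36 against 8.78, 8.95 and 9.07 (-1.06 ± 0.21, limma adjusted p = 0.0726). The receptor gene Lgr4 and Rspo1 had positive differences, of 0.44 ± 0.16 (adjusted p = 0.403) and 0.24 ± 0.14 (adjusted p = 0.642). Of 39 Wnt ligands, receptors and antagonists 0 were called, with a median of 0.03. Among 14 targets of Wnt and beta-catenin 1 was called, which was Lgr5 itself, with a median of -0.04.

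Among genes of skeletal progenitors and tendon cells, 2 of 17 measured were called lower with hPTH(1-34) and 0 higher. The median log2 difference was -0.13, and 3 of the 17 were positive. Scx, the tendon transcription factor scleraxis, measured 4.04, 3.91 and 3.93 with hPTH(1-34) and 4.68, 4.84 and 4.95 with bPTH(7-34) (-0.86 ± 0.10, limma adjusted p = 0.0137). Zfp521, a zinc finger factor of progenitor cells, measured 6.93, 6.54 and 6.62 against 7.44, 7.78 and 7.50 (-0.88 ± 0.13, limma adjusted p = 0.0280). Both sets of arrays were clear of each other. Ebf1 had the same difference as Zfp521, -0.88 ± 0.19, without passing the threshold (adjusted p = 0.0921). Snai2, a transcriptional repressor of mesenchymal cells, was lower by -0.88 ± 0.14 (adjusted p = 0.0354). Of 18 genes of the actin cytoskeleton and targets of SRF and YAP, 2 were called lower, 0 higher and 2 were positive, with a median of -0.27. The called members were Cnn2, an actin-binding calponin (-0.71 ± 0.10, adjusted p = 0.0220), and Vcl, the adhesion protein vinculin (-0.61 ± 0.09, adjusted p = 0.0325). An exception was Cnn1, another calponin, at 1.87 ± 0.52 with overlapping arrays (adjusted p = 0.234). Actin-linked genes outside the list were called in both directions. Csrp2 (1.57 ± 0.16, limma adjusted p = 0.0104) and Ezr (0.65 ± 0.11, limma adjusted p = 0.0467) were higher. Rai14 (-0.73 ± 0.09, limma adjusted p = 0.0177) and Swap70 (-1.14 ± 0.19, limma adjusted p = 0.0464) were lower. Cdc42ep3, an effector of the small GTPase Cdc42, was lower by -1.03 ± 0.11 (adjusted p = 0.0104), and Dock9, an activator of Cdc42, was higher by 2.20 ± 0.25 (adjusted p = 0.0127). A dimmer Cdc42ep3 cluster gave -0.20 ± 0.09 (adjusted p = 0.542).

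**Figure D3:**
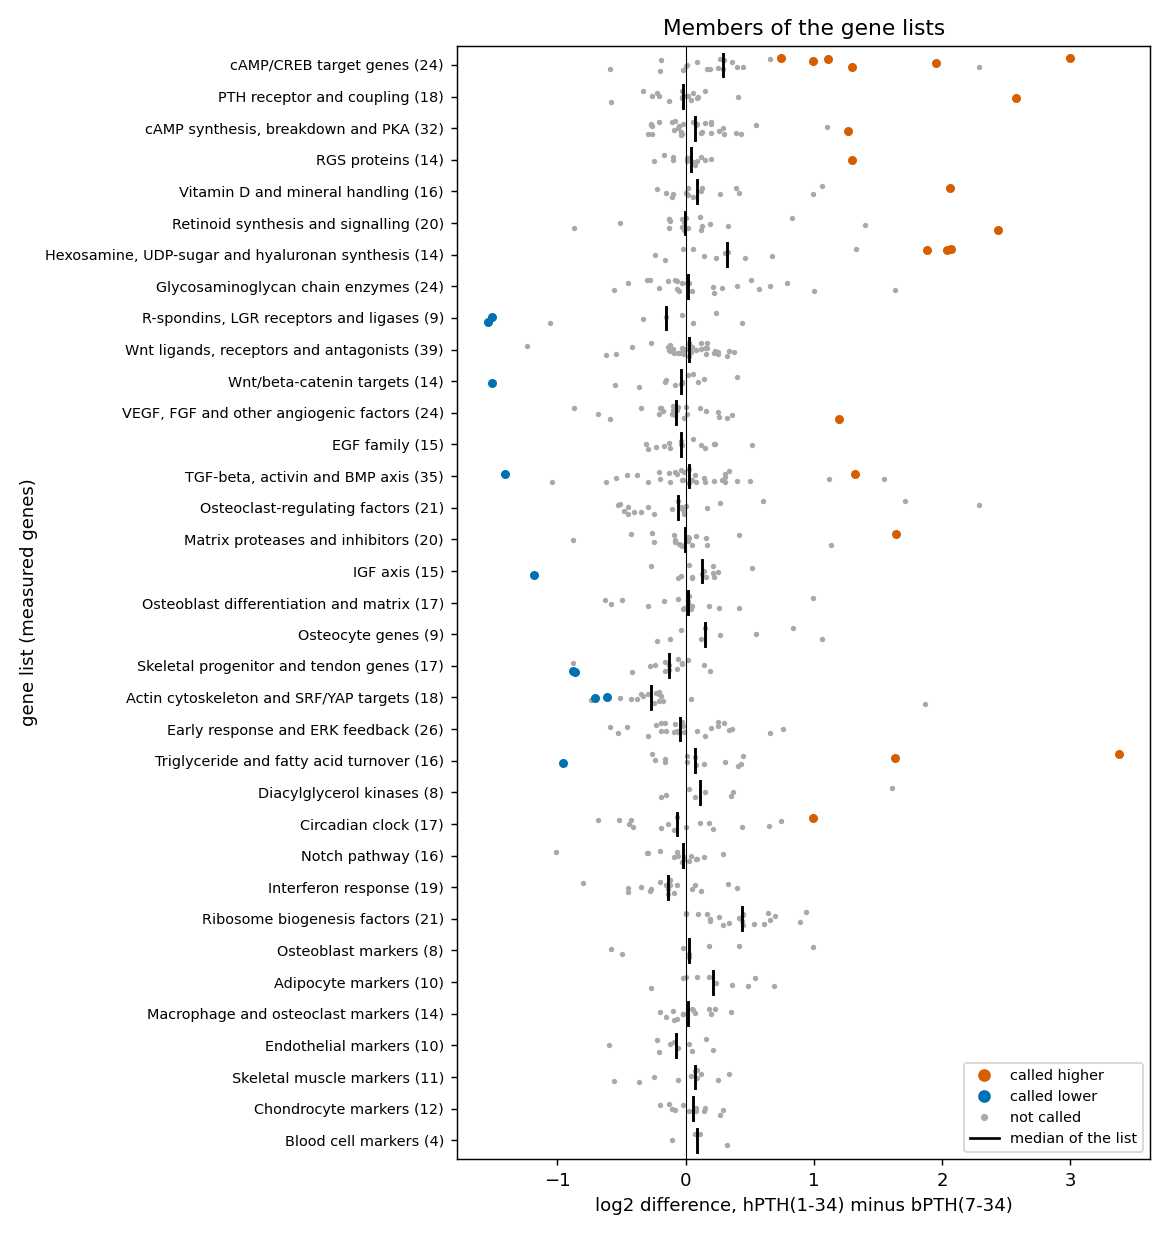
Log2 difference of every measured member of 35 gene lists, with the number measured in brackets, called genes in colour and the median of each list as a bar. Called members lie to the right for cAMP/CREB targets (6 of 24) and sugar nucleotide enzymes (3 of 14), and to the left for R-spondins and LGR receptors (2 of 9). The list of ribosome biogenesis factors has the highest median, 0.44, with 0 of its members called.

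Factors by which osteoblasts control osteoclasts gave no call among 21 genes, and their median was -0.06. Tnfsf11, the gene of RANKL, the cytokine that drives osteoclast formation, measured 6.20, 7.42 and 6.96 with hPTH(1-34) and 4.94, 4.94 and 3.82 with bPTH(7-34). Every hPTH(1-34) array was above every bPTH(7-34) array, but the spread within each group was wide, and the log2 difference of 2.29 ± 0.43 (95% interval 1.32 to 3.27) had a limma adjusted p of 0.0651. With the test limited to the 9260 genes of a mean log2 level of at least 3, its adjusted p was 0.034, as fewer genes were adjusted over. The RANKL decoy receptor Tnfrsf11b gave -0.53 ± 0.16 (adjusted p = 0.273). Il6, a cytokine that favours osteoclasts, measured 8.81, 8.74 and 8.79 against 7.32, 7.97 and 5.91, with the third bPTH(7-34) array well below its group (1.71 ± 0.41, limma adjusted p = 0.15). Among 20 matrix proteases and inhibitors 1 was called, Plaur, the urokinase receptor, at 1.64 ± 0.23 (adjusted p = 0.0228), and the median was -0.01. The aggrecanases Adamts4 and Adamts5 gave opposite signs without a call, at 1.13 ± 0.20 (adjusted p = 0.0512) and -0.88 ± 0.16 (adjusted p = 0.0552). Adamts9, of the same family but not in the list, was called higher by 0.92 ± 0.16 (limma adjusted p = 0.0464). The collagenase Mmp13 differed by -0.08 ± 0.18 (adjusted p = 0.940). Irs1, an adaptor of insulin and IGF receptors, was lower by -1.18 ± 0.19 (adjusted p = 0.0354) and was the 1 called gene of 15 in the IGF axis, whose median was 0.13. A dimmer Irs1 cluster gave -0.39 ± 0.17 (adjusted p = 0.511).

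Genes of the osteoblast state itself showed no call. Of 17 genes of osteoblast differentiation and matrix 0 were called, with a median of 0.02, and of 9 osteocyte genes 0 were called, with a median of 0.15. Col1a1 differed by 0.03 ± 0.11, with a 95% interval from -0.21 to 0.26. Of 26 listed genes of the early response and ERK feedback 0 were called (median -0.04). Spry3, a Sprouty gene that is not in that list, was called higher by 1.85 ± 0.22 (limma adjusted p = 0.0147). Its mean was 3.99 with hPTH(1-34) and a dim 2.14 with bPTH(7-34). Likewise 0 of 16 Notch genes (median -0.02) and 0 of 19 interferon response genes (median -0.14) were called. Jag1, a Notch ligand, gave -1.01 ± 0.21 (adjusted p = 0.0881). In the circadian clock list the 1 called gene of 17 was Nfil3, and the median was -0.07. Of 21 listed ribosome biogenesis factors 0 were called, while 19 were positive and the median was 0.44. Their mean level was 5.64, 5.92 and 6.01 on the hPTH(1-34) arrays, 5.46, 5.47 and 5.40 on the bPTH(7-34) arrays and between 5.41 and 5.48 with vehicle. Nop56, a box C/D ribonucleoprotein subunit, came closest at 0.94 ± 0.17 (adjusted p = 0.0534), and Polr1a, the large subunit of RNA polymerase I, gave 0.66 ± 0.13 (adjusted p = 0.0686). Both passed with the test limited to genes of a mean log2 level of at least 3, at adjusted p of 0.0277 and 0.034. Dimmer Nop56 clusters gave 0.41 ± 0.15 (adjusted p = 0.42) and 0.31 ± 0.22 (adjusted p = 0.735). Gnl2 and Taf1a, which also act in ribosome production but are not in the list, were called higher. Their log2 differences were 0.79 ± 0.11 (limma adjusted p = 0.0231) and 0.81 ± 0.13 (limma adjusted p = 0.0346).

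Several of the genes with the greatest differences belonged to none of these lists. Kcnk10, a background potassium channel of the tandem-pore family, measured 4.12, 5.72 and 5.72 with hPTH(1-34) and 2.67, 1.87 and 1.69 with bPTH(7-34). The arrays did not overlap, but both groups were spread over about a log2 unit or more. Its log2 difference was 3.11 ± 0.42 (limma adjusted p = 0.0216). Cxcl14, a chemokine, was higher by 1.90 ± 0.30 (adjusted p = 0.0354), Lrrc32, which holds latent TGF-beta at the cell surface, by 1.86 ± 0.25 (adjusted p = 0.0220), and the heat shock chaperone Hsph1 by 1.81 ± 0.19 (adjusted p = 0.0104). Mctp2, a membrane protein with calcium-binding domains, was higher by 1.74 ± 0.15 (adjusted p = 0.00757), with means of 3.17 and 1.43, the latter under the background gauge, so the exact size of that difference cannot be read from it. On the lower side, Calhm5, of a family of ion channels, differed by -1.32 ± 0.18 (adjusted p = 0.0228) and the transcriptional regulator Lbh by -1.28 ± 0.15 (adjusted p = 0.0147). The orphan receptor Gpr176 differed by -1.21 ± 0.16 (adjusted p = 0.0173), and Lifr, the receptor of leukaemia inhibitory factor, by -1.02 ± 0.14 (adjusted p = 0.0222). Cdon, a co-receptor for hedgehog proteins, had a small error: its arrays read 7.10, 7.13 and 6.94 against 7.90, 7.92 and 7.96 (-0.87 ± 0.09, limma adjusted p = 0.0104).

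The vehicle arrays are given here as values beside the contrast. Vehicle is shared by both differences quoted here, so they are not independent. Over the 80 genes called higher, the median of hPTH(1-34) minus vehicle was 1.14 and the median of bPTH(7-34) minus vehicle was -0.07 on the log2 scale. Over the 32 called lower, these medians were -0.86 and 0.05. bPTH(7-34) minus vehicle ran from -0.58 to 0.44 among genes called higher and from -0.10 to 0.71 among those called lower. For 5 of the 112 genes the vehicle mean lay nearer the hPTH(1-34) mean than the bPTH(7-34) mean, and these were P2ry6, Hacd3, Eya3, Gm6034 and Olfr1393. P2ry6, a receptor for uridine nucleotides, measured 4.01, 4.01 and 4.02 with vehicle, 4.12, 4.01 and 4.24 with hPTH(1-34) and 3.42, 3.54 and 3.34 with bPTH(7-34). Its vehicle arrays thus fell in or beside the hPTH(1-34) range and above every bPTH(7-34) array. The means of Hacd3, an enzyme of fatty acid elongation, were 6.09 with vehicle, 6.36 with hPTH(1-34) and 5.79 with bPTH(7-34), and those of the phosphatase Eya3 were 5.86, 6.12 and 5.59, so vehicle lay about midway between the peptides for both. For Gm6034 the means were 3.37, 3.32 and 4.00, and for the olfactory receptor gene Olfr1393 they were 1.09, 1.10 and 1.80, near background. Rdh10 also read lower with bPTH(7-34), whose mean was 3.42, than with vehicle, at 3.90, while hPTH(1-34) was at 5.85.

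Markers of other cell types gave 0 calls. The median log2 difference was 0.02 over 14 macrophage and osteoclast markers, -0.08 over 10 endothelial, 0.07 over 11 skeletal muscle, 0.06 over 12 chondrocyte and 0.09 over 4 blood cell markers. The mean level of the macrophage and osteoclast markers ran from 3.51 to 4.48 over the hPTH(1-34) arrays and from 3.53 to 4.24 over those of bPTH(7-34). Endothelial markers ran from 1.96 to 2.02 and from 2.03 to 2.16, and 4 of the 10 (Tie1, Emcn, Cldn5 and Vwf) were under the background gauge in all groups. Skeletal muscle markers ran from 1.86 to 2.07 and from 1.91 to 2.09, chondrocyte markers from 3.54 to 3.92 and from 3.42 to 3.92, and blood cell markers from 1.75 to 1.88 and from 1.67 to 1.73. The part of such cells in the differences was not tested.

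The count of calls leaned on single arrays. The first hPTH(1-34) array was the one nearest the bPTH(7-34) mean in 85 of the 112 called genes, the second in 9 and the third in 15, with 3 ties. The median gap to the bPTH(7-34) mean, in the direction of the call, was 0.87 on the first array, 1.16 on the second and 1.18 on the third. Without the first, 254 genes were called, and 100 of the 112 were among them. Without the second or the third hPTH(1-34) array the count was 3 each time, with Dgat1, Nr4a3 and Mctp2 called in both fits. Leaving out bPTH(7-34) array 1, 2 or 3 gave 49, 19 and 6 calls, and leaving out vehicle array 1, 2 or 3 gave 85, 39 and 41. With the 6 peptide arrays alone 0 genes passed, while 1978 had an unadjusted p under 0.05, against 2140 in the fit of all 9 arrays. Dgat1 then had an adjusted p of 0.0683. In each of these fits all 112 genes kept an unadjusted p under 0.05, and the median size of their differences stayed between 1.03 and 1.18. The 112 genes were chosen by a small p on these same arrays, so this is no separate support. The fit of the 6 peptide arrays has the same differences by construction. A fit without 1 array leaves 2 in its group, which is assumed to vary like the others.

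**Figure D4:**
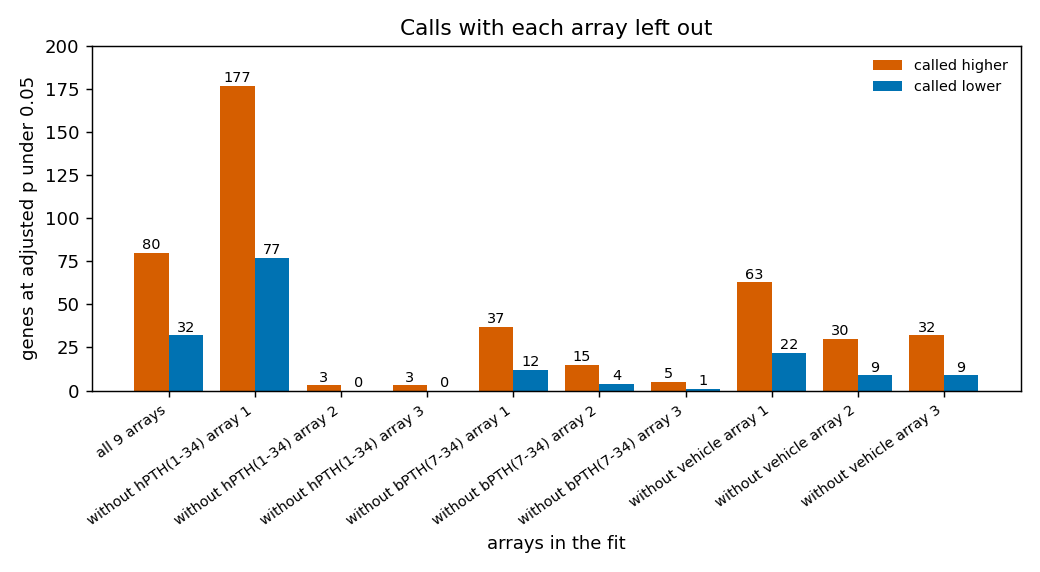
Genes called higher and lower with hPTH(1-34) than with bPTH(7-34) in the fit of all 9 arrays and in fits with 1 array left out. The counts reach 177 higher and 77 lower without the first hPTH(1-34) array and fall to 3 and 0 without the second or the third.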

How the data were processed

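Expression was measured on 9 Affymetrix Mouse Gene 2.0 ST arrays, 3 per group, from 100 ng of RNA each. The deposited values are log2 RMA levels, made by the authors with RMA in Affymetrix Expression Console (versions not stated), per the submitters' processing notes, and rounded to 2 decimals. Of 41345 transcript clusters, 23521 had 1 gene symbol in the array annotation, 1814 several and 16010 none. For the 1082 genes with more than 1 cluster, the cluster of highest mean was kept, which left 22180 genes, 21994 of them with an identifier in the RefSeq table.

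limma 3.58.1 (R 4.3.3, lmFit and eBayes) was fitted to the 9 arrays with a term for group alone, and tested hPTH(1-34) minus bPTH(7-34), two-sided, at a Benjamini-Hochberg adjusted p of 0.05 over all genes. The fit had 6 residual and 3.19 prior degrees of freedom, and was tested on simulated data first. Errors are standard errors of this fit. Arrays have no read depth, and their number limits the precision.

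Equal array numbers were taken to pair samples if all 3 correlations of their deviations exceeded 0.1. They were 0.252, 0.0662 and 0.277, so no pairing was used. The comparison, 35 gene lists (567 of 607 genes measured) and the tests were chosen with earlier results of these data known. Genes were named by rule: the 20 greatest differences in each direction among called genes without overlap, the 3 smallest p per list, and fixed genes. Not all genes that the rule took are described. Among those left out are Isy1, Iyd and Cbarp, called higher, and Bend5, Snx7, Klhl24, Vgll3 and Casp12, called lower. Members of the lists that this rule did not take were chosen after their values were seen. The same holds for Clasp2, Gnl2, Taf1a, Adamts9, Csrp2, Ezr, Rai14, Akap2 and the genes under other observations. Runx2 lacks a 1-symbol cluster and is not analysed here. Plots used matplotlib 3.10.9 in Python 3.11.15.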

Additional observations from a re-analysis of the deposited data

How the results depend on the processing

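Against 112 genes called (80 higher, 32 lower), the count with 1 array left out ran from 3 to 254 in all, from 3 to 177 higher and from 0 to 77 lower. It was 0 with the 6 peptide arrays alone (0 higher, 0 lower). A filter on mean log2 level of at least 3 gave 218 (150 higher, 68 lower) over 9260 genes, and one of at least 5 gave 211 (131 higher, 80 lower) over 5032 genes, so fewer genes were adjusted over. Array weights gave 207 (146 higher, 61 lower), an adjusted p of 0.1 gave 249 (172 higher, 77 lower), and a 2-fold minimum gave 63 (52 higher, 11 lower). The array number as a fixed replicate block gave 119 (90 higher, 29 lower), with 84 of the 112 among them, and as a random block 154 (111 higher, 43 lower) at a correlation of 0.0664. Each array correlated best with its own number in the other peptide group, a hint from the data and not the design. All clusters with 1 symbol (109), quantile normalization (124), 1 median for all arrays (122) and eBayes with trend and robust (138) stayed within 1.5 times. With the filter at 3, 13 named genes that had missed the threshold passed it, among them Alpl, Rspo3, Chst11, Tnfsf11, Nop56 and Polr1a. None of these fits turned the sign of a called gene named by the rule. Leaving out 1 array could not turn it, since the arrays of the peptides did not overlap for any called gene. The other fits reused the same arrays, so the unchanged signs are no separate support. Differences near 0 did change sign with 1 array left out, at -0.04 to 0.10 for Col1a1, -0.01 to 0.09 for Bglap and -0.22 to 0.08 for Mmp13. Over the alternatives run on list medians, that of cAMP/CREB targets ran from 0.21 to 0.40, of sugar nucleotide enzymes from 0.21 to 0.45, of actin genes from -0.36 to -0.23 and of ribosome biogenesis factors from 0.34 to 0.52. The cause of the moves in counts was otherwise not tested. The arrays give no detection calls, and small differences of dim genes are limited by the background.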

Other observations

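The genes here were called but belong to none of the lists, and were chosen after their values were seen. A pair of them act in polyamine turnover. Odc1, which makes putrescine, measured 6.72, 7.38 and 7.81 with hPTH(1-34) and 5.93, 5.59 and 5.69 with bPTH(7-34), a log2 difference of 1.57 ± 0.24 (limma adjusted p = 0.0318). Smox, which oxidises spermine, measured 5.49, 5.80 and 5.50 against 4.44, 4.46 and 4.44 (1.15 ± 0.12, limma adjusted p = 0.0104). Srxn1, which repairs oxidised peroxiredoxins, differed by 1.58 ± 0.20 (adjusted p = 0.0157), Txnrd1, the thioredoxin reductase, by 0.87 ± 0.11 (adjusted p = 0.0148), and the metallothionein gene Mt1 by 1.32 ± 0.16 (adjusted p = 0.0147). For each of these genes the arrays of hPTH(1-34) lay above those of bPTH(7-34).

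Abhd5, the activator of triglyceride breakdown, measured 7.38, 7.43 and 7.48 with hPTH(1-34) and 6.40, 6.16 and 6.41 with bPTH(7-34) (1.11 ± 0.11, limma adjusted p = 0.0104), so it differed in the same direction as Dgat1, which makes triglyceride. Receptors among the genes called higher included Il4ra, for interleukin-4 (1.23 ± 0.18, adjusted p = 0.0262), S1pr1, for sphingosine 1-phosphate (1.24 ± 0.20, adjusted p = 0.0354), and the bradykinin receptor Bdkrb1 (1.14 ± 0.17, adjusted p = 0.0283). The receptors Gpr176 and Lifr, given above, were called lower. Ntrk2, the receptor of brain-derived neurotrophic factor, differed by 0.70 ± 0.12 (adjusted p = 0.0480) with means of 4.22 for hPTH(1-34), 3.52 for bPTH(7-34) and 3.08 for vehicle, so both peptide means were above vehicle. The brightest called gene was Thbs1, a matrix glycoprotein, at 10.38, 10.28 and 10.32 against 10.97, 11.16 and 11.28 (-0.81 ± 0.11, limma adjusted p = 0.0228).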
